A study of Mus musculus with 23 samples.

Results

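Tumours of mice that had received an IL-27 plasmid in a leg muscle were compared with tumours of mice that had received the empty plasmid, with the tumour tissue kept ex vivo in media alone. The libraries were chosen by their labels alone, as the 2 with the IL-27 vector in media (IL27v media 1 and 2) and the 2 with the empty vector in media (EV media 1 and 2), which makes 4 of the 23 RNA libraries of the study. The other 19 libraries crossed the same plasmids with ex vivo IL-27, cabozantinib, both of these, docetaxel, or an anti-PD-L1 antibody. All animals were male C57BL/6 mice, 8 to 10 weeks of age. Their flank tumours grew from TC2Ras cells, a line made from TRAMP-C2 mouse prostate adenocarcinoma cells by lentiviral transfer of an activated H-ras. The empty plasmid was pTSTA-ctrl and the IL-27 plasmid pTSTA-IL27pepL, in which a short peptide called pepL was joined to the cytokine through a linker. Each treated tibialis anterior muscle received 10 µg of plasmid in 20 µl, opened to the DNA by ultrasound and microbubbles (sonoporation). The plasmid therefore went into muscle, whereas the RNA came from tumour. Tumours of both groups thus carried the activated H-ras, and the animals of both had been sonoporated. Libraries were stranded and poly(A)-selected, from RNA with an integrity number no lower than 8. The labels do not tie replicates to separate animals. A p-value here reflects only how far these samples spread, and that spread may be technical.

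IL-27 is a secreted cytokine of 2 chains, encoded by Il27 and Ebi3, that is made mainly by activated macrophages and dendritic cells. It binds a receptor of Il27ra and Il6st, and the kinases Jak1, Jak2 and Tyk2 then phosphorylate transcription factors of the STAT family, among them Stat3. Interferons use the same kinase and STAT route: a complex that holds Stat2 and Irf9 binds the interferon-stimulated response element, and a STAT dimer binds the gamma-activated site. The genes behind these elements encode antiviral proteins, guanylate-binding and immunity-related GTPases that attack membranes around microbes, chemokines that draw T cells, and the machinery that shows peptides to T cells.

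The 4 libraries held 65846816 to 83088346 deposited counts. Levels are given as CPM, counts relative to the scaled library total, where 1 CPM stood for 67.0 to 86.5 counts, and are not divided by gene length, so they compare libraries and not genes. Across genes the EV media libraries correlated at 0.959 with each other, the IL27v media libraries at 0.93, and an EV with an IL27v library at 0.925 to 0.939. The labelled tissue was checked against its markers. Vim, the intermediate filament of mesenchymal cells, measured 3520 to 4920 CPM in EV media and 2590 and 4980 CPM in IL27v media. The epithelial markers Epcam (at most 0.401 CPM) and Krt18 (at most 0.966 CPM) were low in all 4 libraries, and the prostate factor Hoxb13 was at 0 in all 4. The label of prostate adenocarcinoma was thus not matched by these epithelial and prostate markers.

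No gene differed between the vectors in media at an adjusted p under 0.05, which is 0 of 24440 genes tested (0.0%) in edgeR's quasi-likelihood test, and the smallest adjusted p was 0.072. At an unadjusted p under 0.05, 1030 genes were higher in IL27v media (4.21%) and 1179 were lower (4.82%). Without a filter on low counts the same test called 1135 genes, and DESeq2 called 803, of which 353 were higher and 450 lower. In the deposited values 4353 genes were above both EV media libraries in both IL27v media libraries (17.8%), and 4059 were below both (16.6%). Taken singly, IL27v media 1 was above both EV libraries for 35.5% of genes and below both for 30.2%. For IL27v media 2 these shares were 35.1% and 29.8%, and it was the highest of all 23 libraries for 1789 genes (7.32%). These shares over all genes are the background for each count of list members that follows. Since no gene passed the test, each comparison in media below is given as levels in the 4 libraries, with log2 differences as IL27v minus EV. The value after ± is a standard error derived from the test, as the size of the log2 difference over the square root of the F statistic.

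The pair of IL27v media libraries did not carry the same differences. When each was fitted alone against the EV media libraries, with its spread taken from the other groups on the assumption that it varies like them, IL27v media 1 gave 2 genes called higher (0.00823%) and 301 called lower (1.24%). IL27v media 2 gave 6 called higher (0.0247%) and 7 called lower (0.0288%). No gene was called in both of these fits. Skeletal muscle, neutrophil granule and mitochondrial transcripts were higher than in EV media by like amounts in both, and many genes of high GC content were low in both. Interferon-response, chemokine and acute-phase genes were far higher in IL27v media 2 than in IL27v media 1, where many GTPases and some type I genes were also above both EV libraries, by less. The plot of one library against the other shows these groups apart.

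**Figure D1:**
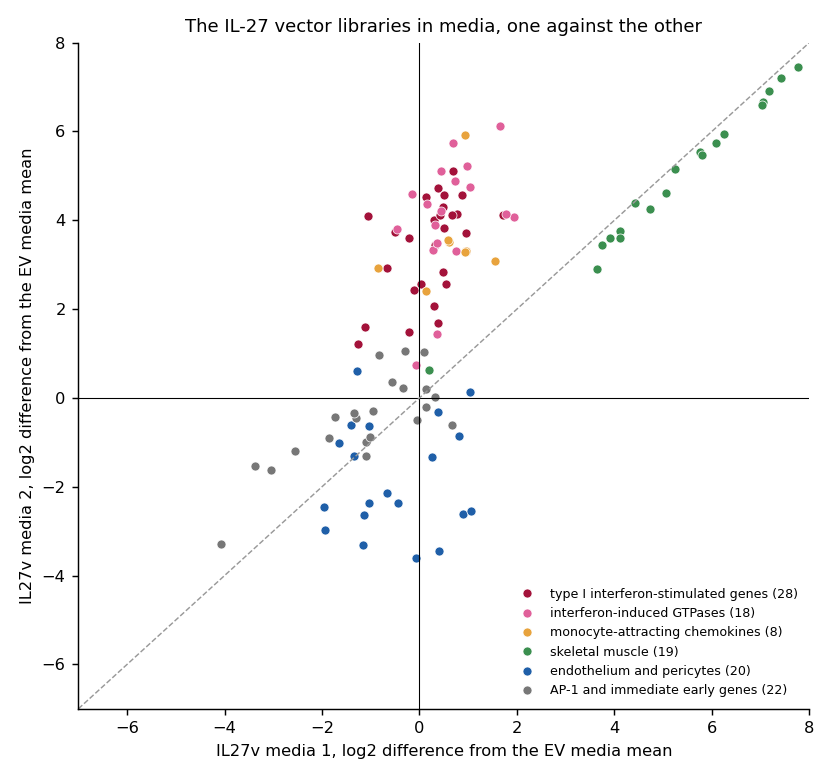
Each point is a gene of 6 lists, placed by the log2 difference of IL27v media 1 (horizontal axis) and IL27v media 2 (vertical axis) from the mean of the EV media libraries, with 0.5 CPM added to each level. Muscle genes lie near the dashed line of equal values, while the 28 type I interferon-stimulated genes and the 18 GTPases lie above it, since each was higher in IL27v media 2.

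The interferon genes are read as a group because many share a response element, so a few promoter stretches are printed before their levels. Promoters were taken from RefSeq (build GRCm38.p6) as the 250 bases before and 50 after each start site, and searched on both strands for the letters GAAANNGAAA, the core of the interferon-stimulated response element. It was present in 10 of the 20 promoters found for type I interferon-stimulated genes and in 9 of 10 for the interferon-induced GTPases, against 3.99% of all 27025 promoters. None of 15 skeletal muscle promoters held it. The gamma-activated site, searched as TTCNNNGAA, was in 4 of the 20 and 6 of the 10, against 9.55% of all promoters. A match describes the letters and is not a measured binding site. In the stretches below, written 5′ to 3′ in the direction of the gene, capitals mark the response element. Ifit1 (chr19:34640765-34640833, plus strand) and Isg15 (chr4:156200855-156200916, minus strand) encode antiviral effectors, Oas3 (chr5:120777705-120777754, minus strand) a sensor of double-stranded RNA, Gbp2 (chr3:142620584-142620633, plus strand), Igtp (chr11:58199502-58199551, plus strand) and Tgtp2 (chr11:49064253-49064302, minus strand) GTPases, and Cxcl10 (chr5:92349073-92349122, minus strand) a chemokine for T cells.
Ifit1: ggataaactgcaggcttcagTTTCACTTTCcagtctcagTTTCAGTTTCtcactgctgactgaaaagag
Isg15: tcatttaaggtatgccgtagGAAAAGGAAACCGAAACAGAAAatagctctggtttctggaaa
Oas3: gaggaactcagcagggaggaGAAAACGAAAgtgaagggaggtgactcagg
Gbp2: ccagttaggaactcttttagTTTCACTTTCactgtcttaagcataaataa
Igtp: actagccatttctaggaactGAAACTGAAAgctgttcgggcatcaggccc
Tgtp2: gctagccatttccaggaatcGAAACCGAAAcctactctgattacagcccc
Cxcl10: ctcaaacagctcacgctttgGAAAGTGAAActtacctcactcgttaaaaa

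Type I interferon-stimulated genes were high in IL27v media 2 and nearer to the empty vector in IL27v media 1. Ifit3, an antiviral tetratricopeptide protein, measured 7.45 and 4.95 CPM in EV media 1 and 2, 10.1 CPM in IL27v media 1 against 227 CPM in IL27v media 2, a log2 difference of 4.26 ± 1.47 (adjusted p = 0.31). Isg15, a ubiquitin-like modifier that carries 3 overlapping matches in the stretch above, measured 4.54 and 2.27 CPM in EV media against 2.14 and 49.3 CPM in IL27v media. Irf7, the factor that amplifies interferon production, was lower in IL27v media 1 than in either EV library and far higher in IL27v media 2, at 9.42, 8.92, 4.12 and 164 CPM in the same order. Oas3, which makes the signal for RNA decay from double-stranded RNA, measured 1.28 and 1.86 CPM in EV media against 2.26 and 34.9 CPM (log2 difference 3.56 ± 1.10, adjusted p = 0.24). Rtp4, a transmembrane antiviral protein, gave 4.23 and 3.56 CPM against 6.42 and 75.1 CPM (3.39 ± 1.04, adjusted p = 0.24). In each of these IL27v media 2 stood apart from the other 3 libraries, and Irf7 was the one for which IL27v media 1 lay clearly below the EV pair.

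Of the 28 listed type I genes, 22 were higher at an unadjusted p under 0.05 and 0 lower, against 4.21% and 4.82% of all genes tested. All 28 were above both EV libraries in IL27v media 2, against 35.1% of all genes. Above them in IL27v media 1 were 15, and 7 were below, against 35.5% and 30.2%, and these 15 were above in both IL27v libraries, against 17.8%. Their median log2 difference was 2.93 over both libraries, where the median of all genes tested was 0.0. Fitted singly, the median was 0.42 for IL27v media 1 and 3.66 for IL27v media 2, so the list median rests on IL27v media 2. Summed over the list, the levels were 200 and 190 CPM in EV media, 235 CPM in IL27v media 1 against 1930 CPM in IL27v media 2. IL27v media 2 held the highest level of all 23 libraries for 23 of the 28, and its sum exceeded the next library, an empty-vector one with cabozantinib and IL-27, at 1220 CPM. The remaining libraries ranged down to 129 CPM, in an IL-27 vector library with cabozantinib.

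**Figure D2:**
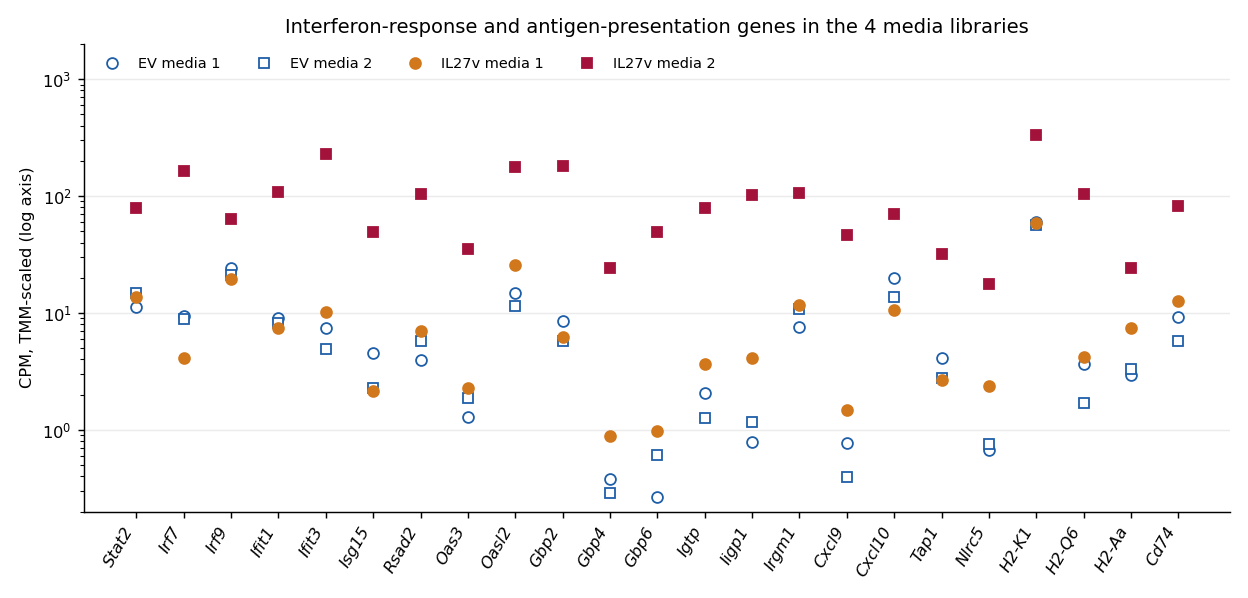
Levels in CPM (log axis) of 23 interferon-response and antigen-presentation genes, with open symbols for EV media 1 and 2 and filled symbols for IL27v media 1 and 2. For each gene the square of IL27v media 2 is the highest of the 4. IL27v media 1 lies among or near the EV media values for some genes, as for Ifit1 at 7.37 CPM beside 9.02 and 8.15 CPM. For others, such as Iigp1, Nlrc5 and H2-Aa, it lies above both EV media values and below IL27v media 2.

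Interferon-induced GTPases showed the same contrast between the IL27v libraries. Gbp2, which coats vacuoles of intracellular microbes, measured 8.5 and 5.72 CPM in EV media, 6.2 CPM in IL27v media 1 against 181 CPM in IL27v media 2. Gbp4 (chromosome 5, 105115767 to 105139586) gave 0.383 and 0.289 CPM against 0.877 and 24.2 CPM, a log2 difference of 5.22 ± 1.34 (adjusted p = 0.19). Igtp, the immunity-related GTPase also called Irgm3, measured 2.07 and 1.26 CPM in EV media against 3.68 and 79.2 CPM (4.64 ± 1.25, adjusted p = 0.19). For these the second IL-27 vector library exceeded the first by 29.3, 27.6 and 21.5 times. Iigp1, another immunity-related GTPase, was above both EV libraries in both IL27v libraries, at 0.792 and 1.17 CPM against 4.09 and 102 CPM. Of the 18 members, 16 were higher at an unadjusted p under 0.05 and 0 lower, 15 were above both EV libraries in both IL27v libraries, and the median was 3.85. Summed levels were 37.2 and 39.2 CPM in EV media, 64.1 CPM in IL27v media 1 against 916 CPM in IL27v media 2, the highest of the 23 libraries. The paralogs of this family share sequence, so values of single members are uncertain.

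Chemokines that draw T cells divided in the same way. Cxcl9, induced chiefly by interferon gamma, measured 0.765 and 0.393 CPM in EV media, 1.49 CPM in IL27v media 1 against 46.1 CPM in IL27v media 2 (log2 difference 5.36 ± 1.46, adjusted p = 0.19). Cxcl10 gave 19.8 and 13.6 CPM against 10.6 and 70.7 CPM, with IL27v media 1 the lowest of the 4. Cxcl16, a membrane-bound chemokine, was above both EV libraries in both, at 5.99 and 4.1 CPM against 8.11 and 33.9 CPM. Ccl5 did not follow them: it measured 9.89 and 5.57 CPM in EV media against 1.1 and 9.38 CPM, so IL27v media 2 fell within the EV range. Of 6 listed genes 2 were higher at an unadjusted p under 0.05 and 0 lower, and all 6 were higher in IL27v media 2 than in IL27v media 1.

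**Figure D3:**
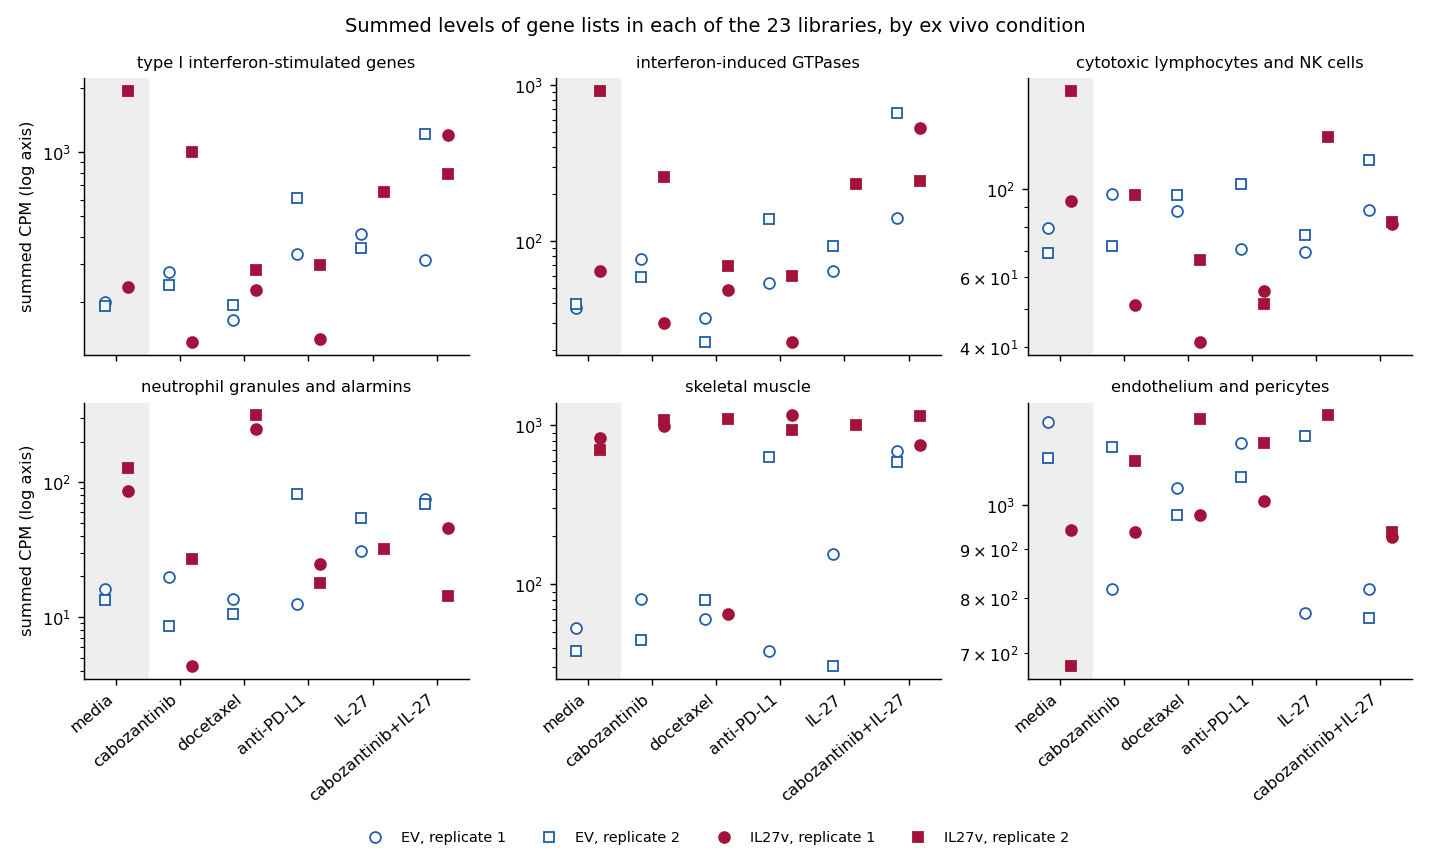
Summed CPM (log axes) of 6 gene lists in each of the 23 libraries, by ex vivo condition, with open symbols for the empty vector, filled symbols for the IL-27 vector, circles for replicate 1 and squares for replicate 2, and the media libraries on grey. In media the interferon panels place 1 filled symbol high and 1 nearer to the open ones, whereas the muscle and neutrophil panels place both filled symbols far above both open ones.

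Transcripts of the interferons themselves were low. Ifng, the product of activated T and natural killer cells, was at 0 in both EV libraries and in IL27v media 1 and at 0.657 CPM in IL27v media 2. Ifnb1 measured 0.158 and 0.347 CPM in EV media against 0 and 0.0597 CPM. Ifna2, Ifna4, Ifnl2 and Ifnl3 were at 0 in all 4 libraries, where 0 allows up to 0.0347 to 0.0448 CPM by a limit of 3 counts. The interferon receptor genes Ifnar1, Ifnar2, Ifngr1 and Ifngr2 had log2 differences between -0.04 and 0.32, with no unadjusted p under 0.05 among the 6 tested members of the list.

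Antigen presentation through MHC class I followed the interferon genes in IL27v media 2. H2-K1 and H2-D1 encode the classical heavy chains. H2-K1 measured 59.4 and 57 CPM in EV media, 59.1 CPM in IL27v media 1 against 335 CPM in IL27v media 2, and H2-D1 101, 81.9, 70.5 and 483 CPM. B2m, the light chain, gave 486 and 331 CPM against 431 and 1250 CPM, and Tap1, a subunit of the peptide pump, 4.12 and 2.76 CPM against 2.67 and 31.8 CPM. In all of these IL27v media 1 lay within or below the EV range. Nlrc5, the transactivator of class I genes, was an exception, at 0.673 and 0.763 CPM against 2.38 and 17.8 CPM (3.81 ± 0.99, adjusted p = 0.19). Calr and Pdia3, chaperones that load class I in the endoplasmic reticulum, had log2 differences of -0.29 and 0.10. Of the 16 members 5 were higher at an unadjusted p under 0.05 and 0 lower, against 4.21% and 4.82% of all genes. Above both EV libraries were 14 in IL27v media 2, against 35.1%, and 3 in IL27v media 1, against 35.5%. Among non-classical genes H2-Q6 measured 3.65 and 1.69 CPM in EV media against 4.18 and 105 CPM, and 4 of the 9 members were higher at an unadjusted p under 0.05. The H2 genes are near-identical copies in places, so the split of reads between them is uncertain.

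The MHC class II genes, which are restricted largely to antigen-presenting cells, were above both EV libraries in both IL27v libraries for 6 of 11 members, against 17.8% of all genes. Cd74, the invariant chain, measured 9.14 and 5.73 CPM in EV media against 12.6 and 82.8 CPM, and H2-Aa 2.92 and 3.33 CPM against 7.38 and 24.4 CPM. Ctss, the protease that degrades the invariant chain, gave 36.6 and 29.7 CPM against 59.4 and 348 CPM. At an unadjusted p under 0.05 3 of the 11 were higher and 0 lower. Ciita, their master regulator, was at most 0.314 CPM in the 4 libraries.

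The transcripts of IL-27 itself did not mark the vector in these tumours. Il27 (chromosome 7, 126589010 to 126594941) was at 0 in all 4 libraries, and Ebi3 (chromosome 17, 55952640 to 55957022) measured 0 and 0.0809 CPM in EV media against 0.0594 and 0.209 CPM. Neither level checks the labels, because the plasmid was placed in leg muscle and may not match the mouse transcripts in sequence. Il27ra, the specific receptor chain, measured 2.65 and 3.68 CPM in EV media against 1.65 and 3.09 CPM, and Il6st, the shared chain, 138 and 209 CPM against 182 and 198 CPM, with overlapping groups in both.

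Of the 16 genes of the IL-27 chains, receptor and JAK-STAT list, 3 were higher at an unadjusted p under 0.05 and 0 lower, Stat2 and Il10 among the 3. Stat2 measured 11.2 and 14.7 CPM in EV media against 13.8 and 79.3 CPM (1.84 ± 0.69, adjusted p = 0.37). Il10, which IL-27 induces in T cells, was low in all, at 0 and 0.196 CPM against 0.921 and 0.627 CPM, and was higher in both IL27v libraries. Stat3 overlapped between the groups, at 150 and 143 CPM in EV media against 102 and 182 CPM. The feedback inhibitor Socs3 measured 42.4 and 35 CPM in EV media, 18.5 CPM in IL27v media 1 against 90.8 CPM in IL27v media 2, and Irf1 32.4, 29.8, 18.3 and 67 CPM. In both genes one IL27v library lay below and the other above the EV pair. Tbx21, the T helper 1 factor that IL-27 is known to induce, was detected among the 4 only in IL27v media 2, at 0.792 CPM.

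T-cell and natural killer transcripts had their highest summed levels in IL27v media 2. Cd3g, Cd4 and Cd8a, of the T-cell receptor complex and its coreceptors, were under 1 CPM in the 4 media libraries. Trdc, of the gamma delta T-cell receptor, was far higher in IL27v media 2 and is given with the cytotoxic genes below. In bulk tissue more cells of a type and more RNA per cell cannot be told apart. Cd3g, which encodes the CD3 gamma chain, was at 0 in both EV libraries and measured 0.0892 CPM in IL27v media 1 against 0.777 CPM in IL27v media 2. Cd8a was at 0 in all but IL27v media 2, at 0.493 CPM, and Cd4 measured 0.264 and 0.162 CPM in EV media against 0.624 and 0.553 CPM. Cd6, a T-cell surface receptor, was at 0 in EV media and at 0.0743 and 0.792 CPM in IL27v media. Summed over the 22 T-cell genes the levels were 7.89, 8.61, 15 and 72.8 CPM, much of it Il7r, the interleukin-7 receptor, at 4.1 and 4.23 CPM against 9.87 and 49.6 CPM. Of the 22, 8 were higher at an unadjusted p under 0.05 and 0 lower, while 18 were higher in IL27v media 2 than in IL27v media 1 and 4 were lower. The median log2 difference was 2.29, or 1.96 when the 9 genes at 0 in EV media are set to the least fold that 3 counts allow.

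Among cytotoxic genes, the granule proteases stood out in IL27v media 2. Gzma was at 0 in both EV libraries, 0.178 CPM in IL27v media 1 against 16.2 CPM in IL27v media 2, at least 409-fold above the limit of 3 counts in the latter. Gzmb measured 1.11 and 1.66 CPM in EV media against 0.535 and 45.6 CPM, a log2 difference of 4.06 ± 1.65 that had the opposite sign, at -1.37, when IL27v media 2 was left out. Klrb1c, the NK1.1 receptor, was at 0 in EV media against 0.0594 and 2.2 CPM. Trdc, the constant region of the gamma delta T-cell receptor, gave 0.224 and 0.0347 CPM in EV media, 0.253 CPM in IL27v media 1 against 57.7 CPM in IL27v media 2, more than in any other library, of which the highest was 9.06 CPM. Of 17 cytotoxic genes tested, 4 were higher at an unadjusted p under 0.05 and 0 lower. Of the 5 tested granzymes of the D to G cluster, which cytotoxic and some other cells make, 0 were at that level in either direction, and their summed level was 7.44 and 31.1 CPM in EV media against 3.91 and 17.7 CPM.

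Checkpoint ligands were higher in IL27v media 2 than in the EV pair. Cd274, which encodes PD-L1, measured 16.9 and 14.6 CPM in EV media, 20.7 CPM in IL27v media 1 against 95.2 CPM in IL27v media 2 (log2 difference 1.88 ± 0.80, adjusted p = 0.46). Pdcd1lg2, which encodes PD-L2, was at 0 in both EV libraries and at 0.238 and 3.63 CPM in IL27v media, at least 48.9-fold higher on average (adjusted p = 0.19). Havcr2, the TIM-3 receptor, was with Tigit 1 of 2 members whose higher level was in IL27v media 1, at 2.85 and 1.96 CPM in EV media against 14.3 and 9.59 CPM (2.31 ± 0.68, adjusted p = 0.24). Cd80 and Cd86, ligands of CD28 and CTLA-4, measured 1.11 and 0.185 CPM against 2.59 and 21 CPM and 1.65 and 3.34 CPM against 5.63 and 22.1 CPM. Of 12 members, 9 were above both EV libraries in both IL27v libraries, against 17.8% of all genes, and 5 were higher at an unadjusted p under 0.05.

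Monocyte genes and inflammatory chemokines were also high in IL27v media 2. Fcgr1, the high-affinity antibody receptor of monocytes, measured 3.17 and 3.98 CPM in EV media against 7.28 and 66.4 CPM. Ly6c2, a marker of inflammatory monocytes, gave 0 and 0.139 CPM against 0.579 and 18.9 CPM, and Adgre1, which encodes F4/80, 4.27 and 7.89 CPM against 12.2 and 35.5 CPM. These 3 were above both EV libraries in both IL27v libraries. The complement genes C1qa and C1qb, typical of resident macrophages, were not, at 13.5 and 9.27 CPM against 2.62 and 11.3 CPM for C1qa. Apoe, a lipid carrier of such macrophages, was lower in both, at 50.5 and 78.4 CPM against 16.4 and 36 CPM (-1.30 ± 0.56, adjusted p = 0.48). Of 19 macrophage and monocyte genes 6 were higher and 1 lower at an unadjusted p under 0.05, with summed levels of 1250 and 1140 CPM against 1160 and 1800 CPM.

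Of the 8 monocyte-attracting chemokines 7 were higher at an unadjusted p under 0.05 and 0 lower, and in IL27v media 2 all 8 held the highest level of the 23 libraries, against 7.32% of all genes. Ccl7 measured 30 and 22.9 CPM in EV media, 40.1 CPM in IL27v media 1 against 304 CPM in IL27v media 2 (2.70 ± 0.81, adjusted p = 0.24). Ccl8 gave 1.31 and 0.613 CPM against 2.21 and 85.8 CPM, and Ccl6 65.5 and 62 CPM against 187 and 546 CPM. The neutrophil-attracting Cxcl5 measured 1.4 and 0.589 CPM in EV media against 2.56 and 354 CPM, and Cxcl3 17.7 and 4.88 CPM against 16.6 and 295 CPM. The median log2 difference was 2.63 for the monocyte chemokines and 1.98 for the neutrophil chemokines, and 0.77 and 0.50 when IL27v media 2 was left out. Eotaxin, encoded by Ccl11 and drawing eosinophils, measured 0.633 and 0 CPM in EV media against 1.11 and 126 CPM.

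Inflammatory cytokines and acute-phase genes showed the same pattern. Il6 measured 1.19 and 0.728 CPM in EV media, 2.72 CPM in IL27v media 1 against 125 CPM in IL27v media 2, Il1b 2.44 and 1.24 CPM against 5.33 and 59.4 CPM, and Tnf 0.963 and 0.936 CPM against 0.446 and 11.2 CPM. Saa3, an acute-phase apolipoprotein, gave 0.699 and 0.37 CPM in EV media against 1.1 and 375 CPM, a ratio of 341 between the IL-27 vector libraries. Ptx3, a soluble pattern receptor, was lowest in IL27v media 1, at 0.416 CPM, and highest of the 4 in IL27v media 2, at 171 CPM, beside 0.858 and 0.925 CPM in EV media. The complement genes C3 and Cfb, named after their values were seen, measured 5.3 and 4.5 CPM against 8.22 and 416 CPM, and 4.63 and 1.48 CPM against 8.13 and 460 CPM. Acod1, the itaconate-making enzyme of activated macrophages, gave 2.47 and 1.77 CPM in EV media against 0.713 and 106 CPM. Of 23 listed NF-kB and cytokine genes 9 were higher at an unadjusted p under 0.05 and 0 lower, and all 23 were higher in IL27v media 2 than in IL27v media 1. The part of immune-cell number in these levels was not tested.

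Endothelial genes were low in IL27v media 2. In the fit of that library alone Cdh5 (vascular endothelial cadherin, chromosome 8, 104101625 to 104144511) and Flt1 (a receptor of vascular endothelial growth factor) were called lower, with log2 differences of -3.92 ± 0.57 (adjusted p = 0.031) and -3.71 ± 0.59 (adjusted p = 0.032). Cdh5 measured 53.5 and 55.5 CPM in EV media, 52.1 CPM in IL27v media 1 against 4.02 CPM in IL27v media 2, and Flt1 70.5, 72, 94.9 and 6.09 CPM. The other 19 libraries of the study ranged from 25.2 to 81.5 CPM for Cdh5 and from 12.9 to 64.1 CPM for Flt1, all above IL27v media 2. Adgrf5 and Apold1, a receptor and a regulator of endothelium, were called lower in the same fit, at 47.1 and 53.1 CPM against 89.8 and 2.3 CPM, and at 22.6 and 19 CPM against 33.6 and 0.807 CPM. Pecam1, the CD31 adhesion molecule, measured 57 and 45.8 CPM in EV media, 95.7 CPM in IL27v media 1 against 7.93 CPM in IL27v media 2.

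Some vascular genes were low in both. Egfl7, a matrix protein secreted by endothelium, measured 14.9 and 11.4 CPM in EV media against 3.05 and 1.22 CPM (-2.62 ± 0.70, adjusted p = 0.19). Vwf, the von Willebrand factor, gave 6.64 and 6.56 CPM against 2.3 and 2.39 CPM, and the growth factor Vegfa 632 and 569 CPM against 294 and 389 CPM (-0.82 ± 0.32, adjusted p = 0.39). With each library's trend with GC content removed, Egfl7 was at -1.92, Vwf at -1.01, where it had been -1.49, and Vegfa at -0.88. The median of the endothelial and pericyte list was -0.99, and -0.75 with that trend removed. Of 20 endothelial and pericyte genes 9 were lower at an unadjusted p under 0.05 and 0 higher, against 4.82% of all genes, and 18 were below both EV libraries in IL27v media 2 and 13 in IL27v media 1, against 29.8% and 30.2%. The summed level of 678 CPM in IL27v media 2 was the lowest of the 23 libraries.

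Genes of the matrix and its proteases differed between the IL27v libraries. Mmp2 (gelatinase A, chromosome 8, 92827291 to 92853420) was called higher in IL27v media 2 alone, with a log2 difference of 3.73 (adjusted p = 0.017). It measured 22 and 25.5 CPM in EV media, 18.9 CPM in IL27v media 1 against 353 CPM in IL27v media 2, and left without the latter its difference was -0.33. Mmp3, stromelysin 1, gave 5.62 and 2.61 CPM against 18.6 and 971 CPM (6.91 ± 1.67, adjusted p = 0.17). Ctsk, a collagen-degrading cathepsin called in the same single-library fit, measured 15.5 and 12.1 CPM against 26.3 and 120 CPM. The collagen Col1a1 was low only in IL27v media 1, at 674 and 876 CPM in EV media against 69.2 and 890 CPM, while Col3a1 was low in IL27v media 1 and high in IL27v media 2, at 1140 and 1200 CPM against 285 and 3660 CPM. Col5a1 and Bgn, which encodes biglycan, were below both EV libraries in both, at 121 and 166 CPM against 31.2 and 73.1 CPM and 2740 and 2370 CPM against 1540 and 1230 CPM. The log2 difference of Col5a1 was -1.46, and -0.93 with the GC trend removed. Of 22 matrix genes, 17 were below both EV libraries in IL27v media 1, against 30.2% of all genes, and 12 were at their highest of the 23 libraries in IL27v media 2, against 7.32%. Over both libraries 2 of the 22 were higher and 2 lower at an unadjusted p under 0.05, and of 17 proteases 3 were higher and 0 lower.

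The remaining genes called in IL27v media 2 alone, named after their values were seen unless listed above, have varied roles. Srxn1, which repairs oxidised peroxiredoxins, measured 105 and 90.8 CPM in EV media against 165 and 444 CPM. Mgst1, a microsomal glutathione transferase, gave 4.2 and 3.77 CPM against 5.5 and 51.7 CPM, Chl1, a neural adhesion molecule, 1.23 and 0.659 CPM against 1.07 and 57.1 CPM, and Slc6a4, the serotonin transporter, 2.02 and 1.94 CPM against 2.51 and 19.6 CPM. Sema3f and Zfp963 were at 0 in IL27v media 2, at least 108-fold and 56.8-fold lower than the EV mean by the limit of 3 counts. Hoxb3, a patterning factor, measured 3.6 and 6.61 CPM in EV media against 5.79 and 0.388 CPM.

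Among genes low in both IL27v libraries were those nearest to the threshold. Per1, a repressor of the circadian clock, measured 92.1 and 121 CPM in EV media against 16.1 and 23.4 CPM, a log2 difference of -2.43 ± 0.38 (adjusted p = 0.072). Slc2a1, which encodes the glucose transporter GLUT1, gave 809 and 654 CPM against 204 and 231 CPM (-1.75 ± 0.28, adjusted p = 0.072), and Smtn, the smooth muscle and stromal protein smoothelin, 280 and 428 CPM against 43.4 and 72 CPM (-2.62 ± 0.42, adjusted p = 0.072). The groups did not overlap, which was a condition for naming genes by their smallest p-values. Replicates differed most for Smtn. Across the other 19 libraries Per1 ranged from 42.2 to 114 CPM, Slc2a1 from 329 to 871 CPM and Smtn from 88.7 to 486 CPM, so both IL27v media libraries were the lowest of all 23. Lmtk3, a kinase-like membrane protein, had an adjusted p of 0.094, and Prag1 and Srsf4, the latter a splicing factor, of 0.15.

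**Figure D4:**
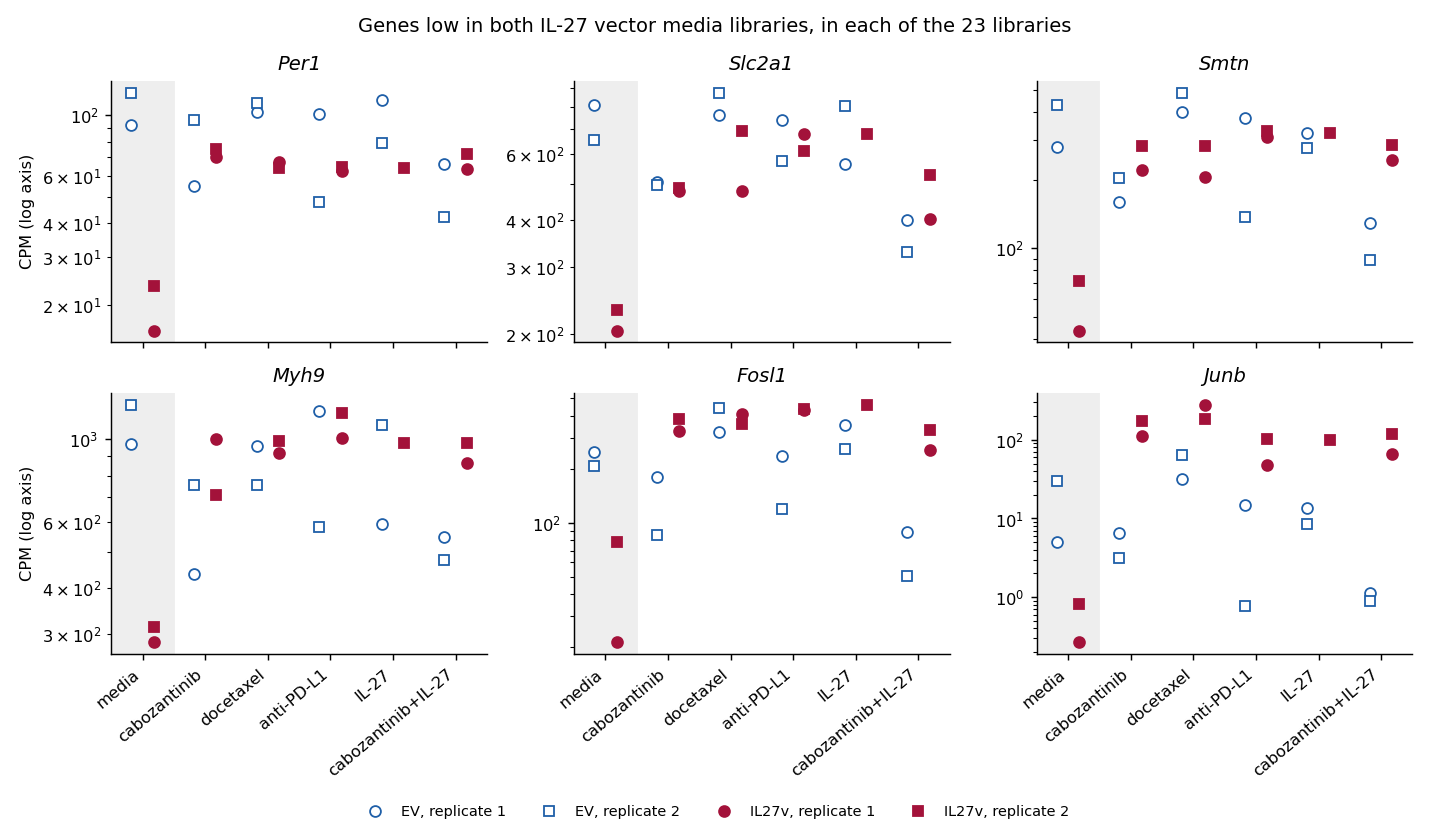
Levels in CPM (log axes) of Per1, Slc2a1, Smtn, Myh9, Fosl1 and Junb in each of the 23 libraries, by ex vivo condition, with open symbols for the empty vector, filled for the IL-27 vector, circles for replicate 1 and squares for replicate 2. On the grey media band both filled symbols lie under both open ones, and for Per1, Slc2a1, Smtn and Myh9 they are the lowest of all 23 libraries. For Junb all 9 filled symbols outside media lie at 47.6 CPM or more.

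Several of the other low genes act in cell shape, nuclear receptors or lipid control. Myh9, the heavy chain of non-muscle myosin, measured 975 and 1240 CPM in EV media against 286 and 315 CPM, and Flnc, an actin cross-linker, 198 and 251 CPM against 57 and 96.8 CPM. Ppard, a fatty-acid-sensing nuclear receptor, gave 115 and 134 CPM against 16.1 and 37.4 CPM. Srebf1 and Srebf2, the switches of fatty acid and cholesterol synthesis, measured 38.5 and 61.7 CPM against 6.49 and 15.7 CPM and 161 and 187 CPM against 64.6 and 77.5 CPM. Trib3 and Ddit3, of the integrated stress response, were low in both as well, at 40.8 and 52.9 CPM against 9.82 and 19.1 CPM and at 229 in each EV library against 101 and 58 CPM. The lists around them had medians of -0.24 (cholesterol synthesis, 3 of 16 lower and 1 higher at an unadjusted p under 0.05), -0.42 (stress and unfolded protein responses, 4 of 18 lower and 0 higher) and -0.38 (hypoxia and glycolysis, 3 of 20 lower and 0 higher), where 4.82% of all genes were lower. With each library's GC trend removed, the median of the stress and unfolded protein list was -0.09 and that of cholesterol synthesis -0.16. Under that offset Srebf2 was at -0.64 and Flnc at -0.91, where the differences without it were -1.29 and -1.55. Of 14 heat shock genes 2 were lower and 0 higher, with a median of 0.11, and Hspa1a, the inducible HSP70, measured 1.89 and 4.26 CPM against 0.267 and 1.48 CPM.

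Immediate early genes of the AP-1 family, which cells switch on within minutes of a stimulus, were low in both IL27v media libraries. Fosl1 measured 249 and 208 CPM in EV media against 21.4 and 78.2 CPM (-2.20 ± 0.51, adjusted p = 0.16), and Nr4a1, an orphan nuclear receptor, 26.8 CPM in each EV library against 4.18 and 11.4 CPM. Junb differed between the EV replicates themselves, at 4.95 and 30.4 CPM, and measured 0.267 and 0.821 CPM in IL27v media. Jun gave 43.1 and 65.7 CPM against 24.6 and 26.5 CPM. Fos itself overlapped, at 11.9 and 16.5 CPM against 7.68 and 28.1 CPM. Of 22 listed genes 8 were lower at an unadjusted p under 0.05 and 0 higher, against 4.82% and 4.21% of all genes, and 12 were below both EV libraries in both, against 16.6%. The median was -0.74, and -0.37 with the GC trend removed, beside 0.81 for the IL-27 vector in the other ex vivo conditions.

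Whether the vector difference in media departed from its mean in the 5 other conditions was tested as an interaction. At an adjusted p under 0.05, 217 genes were below (0.888%) and 1, Chil3, was above (0.00409%). Of these 218 genes, 213 were below both EV libraries in both IL27v media libraries, against 16.6% of all genes. The contrast that picked them holds these same libraries, so this count follows in large part from the choice. Junb had the widest gap among the named ones called below, with a log2 difference of -5.02 ± 1.11 in media and an interaction of -9.04 ± 1.34 (adjusted p = 0.017). In the other IL-27 vector libraries it measured 47.6 to 281 CPM, in empty-vector libraries at most 64.1 CPM. Smtn, Lmtk3, Fosl1, Srebf1, Nr4a1 and Slc2a1 were called too, with interactions of -2.88, -4.67, -3.27, -3.08, -2.43 and -1.71. Of the AP-1 list 7 of 22 were called below. None of the interferon, GTPase, chemokine, MHC, lymphocyte or checkpoint members was called in this test, so their difference in media was not shown to depart from that elsewhere. The median interaction was 2.55 for the type I list and 3.78 for the GTPases, beside 0.12 for all genes. The interaction count rested on single libraries: it was 0 without EV media 2, 10 without IL27v media 1 and 640 without IL27v media 2.

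The 217 genes called below in the interaction had a high content of G and C bases. Their longest transcripts had a median GC content of 59.1%, against 49.0% for all genes tested, and 214 of the 216 with a value lay above that median. Genes lower in media at an unadjusted p under 0.05 had a median of 57.3%, and those higher of 47.8%. Over all genes the median log2 difference in media was 0.14 in the fifth of genes with the least GC (17.1 to 43.3%) and -0.46 in the fifth that had the most (54.8 to 78.3%). Fitted singly, the latter was -0.98 for IL27v media 1 and -0.34 for IL27v media 2. After each library's trend with GC was removed by an offset, an alternative added after seeing the data, 23 of the 218 remained called, among them Junb (-7.41), Ppard (-2.69), Srsf4 (-2.59), Lmtk3 (-2.47) and Vps37b (-3.22). The interaction of Per1 was then -0.91 (adjusted p = 0.50), where it had been -2.17, and that of Smtn -1.52 (adjusted p = 0.11). Their differences in media under the offset were -1.66 (adjusted p = 0.15) and -1.82 (adjusted p = 0.13). The part of GC content in the remaining values was not tested.

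**Figure D5:**
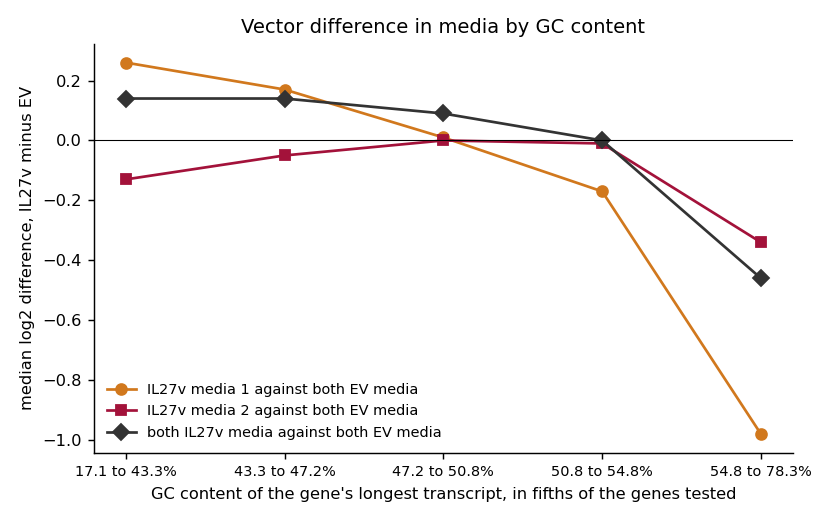
Median log2 difference of IL27v from EV media (vertical axis) in 5 equal groups of the tested genes ordered by GC content of the longest transcript (horizontal axis), for both IL27v media libraries together and for each fitted alone. The lines lie between -0.17 and 0.26 in the lower 4 groups and end in the group of highest GC at -0.46 for both together, -0.98 for IL27v media 1 and -0.34 for IL27v media 2.

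Among the genes called lower when IL27v media 1 was fitted alone were Per1, Slc2a1, Smtn and Nr4a1, which were low in both IL27v libraries. Of its 301 genes called lower, Sh3bp1, a GTPase-activating protein, measured 56.6 and 73.5 CPM in EV media against 0.966 CPM in IL27v media 1 against 37.3 CPM in IL27v media 2. Cul7, a ubiquitin ligase scaffold, gave 128, 164, 17.8 and 82.7 CPM, and Scrib, a cell polarity protein, 54.7, 85.9, 5.41 and 35.9 CPM, all 3 named after their values were seen. They too were below both EV libraries in both, and lower in IL27v media 1. The first in that list by p, Rab43, overlaps Gm45140, and the splicing regulator Raver1 overlaps Gm38431. Rab43 measured 0.149 CPM in IL27v media 1, where Gm45140 stood at 31.6 CPM, so that the split of reads within such pairs is uncertain. Of 27 cytosolic ribosomal protein genes, 16 were below both EV libraries in IL27v media 1, against 30.2% of all genes, and 5 in IL27v media 2, against 29.8%. Their sum was 31500 and 18300 CPM in EV media against 15400 and 28100 CPM.

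Skeletal muscle transcripts were far higher in both IL27v media libraries than in EV media, where most single genes were near 0. Actn3, the alpha-actinin of fast fibres, was at 0 in both EV libraries and at 37.3 and 30.4 CPM in IL27v media, at least 854-fold higher (adjusted p = 0.16). Tnnt3, fast troponin T, measured 0.198 and 0 CPM against 84.8 and 70.7 CPM, and Acta1, skeletal actin, 0.264 and 0.0231 CPM against 83.8 and 63.4 CPM. Actn3 and Tnnt3 were the only genes called higher in IL27v media 1 alone. All but 1 of 19 muscle genes were higher at an unadjusted p under 0.05, against 4.21% of all genes, and the summed levels were 53.4 and 37.9 CPM against 837 and 695 CPM. The median log2 difference was 9.02, or 7.51 with the 6 genes at 0 in EV media set to their least fold. The list was not particular to the IL-27 vector. Among 10 empty-vector libraries elsewhere, 3 held 592 to 687 CPM and the other 7 30.4 to 154 CPM, and of the other 9 IL-27 vector libraries 8 held 750 to 1160 CPM and 1 held 65.4 CPM.

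Neutrophil granule genes had a similar distribution in media. Ngp, a granule protein of immature neutrophils, was at 0 in both EV libraries and at 18.8 and 16.7 CPM in IL27v media. Outside media it was at 14.1 to 15.3 CPM in the same 3 empty-vector libraries that held muscle transcripts, which are the second with the PD-L1 antibody and both with cabozantinib and IL-27, and at 0 in all 9 other IL-27 vector libraries. The summed list, which holds alarmins as well as granule genes, was also high in some libraries without Ngp. Both IL-27 vector libraries with docetaxel had sums of 247 and 314 CPM, against 85.8 and 128 CPM in IL27v media. The same docetaxel libraries had the highest keratinocyte sums of the 23, at 7080 and 6590 CPM, so the sum alone does not show neutrophil granule genes there. Chil3, a chitinase-like secreted protein, was at 0 in EV media and at 9.67 and 8.8 CPM in IL27v media, at least 233-fold higher (adjusted p = 0.16). It was the 1 gene called above in the interaction (adjusted p = 0.036). That interaction, 13.97, was larger than the difference in media, 12.31, so the mean vector difference of Chil3 elsewhere was negative. Both values depend on the prior count, and the interaction thus does not rest on media alone. S100a9, an alarmin, measured 0.198 and 0 CPM against 14.1 and 11 CPM, and Ltf, lactoferrin, 0 and 0.116 CPM against 13.5 and 10.8 CPM. Of 17 listed genes 11 were higher at an unadjusted p under 0.05 and 0 lower. Their median was 7.17, or 4.02 with the 8 genes at 0 in EV media set to their least fold. Ly6g, the defining surface marker of mature neutrophils, was at most 0.449 CPM in the 4 libraries.

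Over the libraries, the 217 genes called below in the interaction were lowest where Ngp was present. They were chosen by a contrast that holds these libraries, so their levels are a description. Against the mean of the empty-vector libraries without Ngp, their median was -2.20 in IL27v media 1 and -1.29 in IL27v media 2, with 217 of 217 below in each. It was -0.98, -1.06 and -1.31 in the 3 empty-vector libraries that held Ngp, and 0.50 to 0.79 in the other 9 IL-27 vector libraries. Some libraries without Ngp were low too: the median was -0.49 and -0.61 in the empty-vector libraries with cabozantinib (195 and 210 of 217 below) and -0.31 in EV media 1 (189 below), and in the other empty-vector ones -0.08 to 0.57. Since both IL27v media libraries held Ngp and high muscle sums and neither EV media library did, the vector and whatever these transcripts mark cannot be told apart in media. The muscle and neutrophil sums were of like size in IL27v media 1 and 2, at 837 and 695 CPM and at 85.8 and 128 CPM, whereas the type I interferon sums were 235 and 1930 CPM.

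Other genes high in both IL27v libraries included mitochondrial and stress-response genes. All 13 mitochondrially encoded messenger RNAs were above both EV libraries in both IL27v libraries, against 17.8% of all genes, and 7 were higher at an unadjusted p under 0.05, against 4.21%. Among them mt-Nd1, a subunit of complex I, measured 1010 and 1110 CPM in EV media against 2730 and 3530 CPM (1.56 ± 0.41, adjusted p = 0.19), and mt-Co2, of complex IV, 1480 CPM in each against 2420 and 3780 CPM. The summed level of 44000 CPM in IL27v media 2 was the highest of the 23 libraries, beside 22000 and 22200 CPM in EV media and 36800 CPM in IL27v media 1. Of the NRF2 list, the oxidant response, 5 of 11 were higher at an unadjusted p under 0.05 and 1 lower, with Nqo1 at 7.1 and 6.61 CPM against 12 and 29.5 CPM. The 1 lower was the metallothionein Mt1, at 39.1 and 88.7 CPM against 3.77 and 11 CPM. Prl2c2, a prolactin-related growth factor gene with close copies, measured 207 and 81.5 CPM in EV media against 825 and 1670 CPM (3.11 ± 0.69, adjusted p = 0.16), and Cd300lb, an activating myeloid receptor, 5.53 and 5.04 CPM against 13.4 and 29.5 CPM.

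Genes of other cells that a flank tumour could hold were described in the same way. Of 19 keratinocyte genes 1 was higher and 2 were lower at an unadjusted p under 0.05, with a median of -0.05. Their sum was 183 and 494 CPM in EV media, 89.1 CPM in IL27v media 1 and, the lowest of the 23 libraries, 28.8 CPM in IL27v media 2. The median of IL27v media 2 fitted alone, -4.22, depends on the prior count, because many members were at 0 there. In that library 6 of the 19 were below both EV libraries and 3 above, against 29.8% and 35.1% of all genes. With the GC trend removed the median over both was 0.60. Sprr1a, a cornified envelope precursor that tumour cells also make, measured 168 and 476 CPM in EV media against 51.5 and 8.98 CPM (-3.41 ± 0.82, adjusted p = 0.16), and Krt14, the basal keratin, 0 and 1.35 CPM against 2.39 and 0 CPM. Of 6 erythroid genes 0 were at that level, with the globin gene Hbb-bs at 36 and 8.32 CPM in EV media against 8.48 and 53.6 CPM. Of 11 adipocyte genes 1 was higher and 0 lower, and of 10 B-cell genes 2 were higher and 1 lower. Ighm, the heavy chain of immunoglobulin M, measured 0.58 and 0.358 CPM against 1.34 and 17.3 CPM. Among 12 dendritic-cell genes 1 was higher and 2 were lower. The lower ones were Flt3, the growth factor receptor of their precursors, at 9.75 and 14 CPM against 5.87 and 4.45 CPM (-1.20 ± 0.36, adjusted p = 0.24), and Fscn1, an actin bundler of mature dendritic cells that tumour cells also make, at 122 and 118 CPM against 13.5 and 53.1 CPM (-1.85 ± 0.57, adjusted p = 0.25).

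More mitosis genes were above than below EV media in IL27v media 1, and more were below in IL27v media 2. Of 20 genes, 12 were above and 2 below both EV libraries in IL27v media 1, against 35.5% and 30.2% of all genes. Their sum there, 2950 CPM, was above that of every other library, beside 2490 and 2340 CPM in EV media. By contrast 2 were above and 11 below in IL27v media 2, against 35.1% and 29.8%, with a sum of 2060 CPM. Fitted singly, the median log2 difference was small, at 0.18 for IL27v media 1 and -0.39 for IL27v media 2. Over both, the median log2 difference was -0.07 with 0 of 20 at an unadjusted p under 0.05 in either direction. The DNA replication list had a median of -0.03 with 3 of 20 lower and 0 higher. Mki67, the Ki-67 antigen, measured 262 and 293 CPM in EV media against 328 and 140 CPM, and Top2a, a topoisomerase of dividing cells, 509 and 545 CPM against 768 and 451 CPM, with IL27v media 1 above and IL27v media 2 below the EV pair in both. The 3 lower were Mcm2, Cdt1 and Uhrf1, of which Uhrf1, a reader of hemimethylated DNA, gave 81.1 and 84.6 CPM against 36.7 and 39.1 CPM. Hras, whose activated form the line carries, measured 21.9 and 13.8 CPM in EV media against 7.4 and 25 CPM. Among its output and feedback genes Dusp4, a phosphatase of ERK, was lower in both at 227 and 268 CPM against 162 and 114 CPM (-0.84 ± 0.28, adjusted p = 0.28, and -0.38 with the GC trend removed), and 2 of 15 were lower at an unadjusted p under 0.05 and 0 higher, with a list median of -0.23. Snai1 was the 1 of 18 tumour identity genes at that level, at 9.13 and 7.78 CPM against 1.1 and 2.94 CPM, while Zeb1 overlapped at 69.4 and 74.5 CPM against 73.2 and 90.7 CPM. Genes of p53 had a median of 0.28, with 2 of 16 higher and 1 lower.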

How the data were processed

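Estimated counts for 55401 genes in 23 libraries were deposited as 1 table, and every column was used. The tools named per the submitters' processing notes are HISAT2, StringTie, cutadapt and DESeq2, with build GRCm38. Their versions are not given in the sources at hand. The deposited values are whole numbers, of which 31.7 to 35.3% between 1 and 40 are multiples of 4, and 143 genes hold the same value above 0 in every library. Symbols came from GENCODE vM21 for 55141 identifiers.

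Differences were tested with edgeR 4.0.16 (R 4.3.3, limma 3.58.1) by its quasi-likelihood test, with TMM scaling, a filter on low counts by group that left 24440 genes, and 1 model of the 12 groups, with 11 residual degrees of freedom. Adjusted p-values are Benjamini-Hochberg values over all genes tested, and a gene was called under 0.05. The interaction set the vector difference in media against its mean over 5 other ex vivo conditions. In 1 of these, ex vivo IL-27, the IL-27 vector group had 1 library. DESeq2 1.42.0 was an alternative. The fits were tested on simulated data first, with differences given to well-counted genes in IL27v media. For the media comparison edgeR recovered 38 of 100 genes with a 4-fold difference and 90 of 100 with a 16-fold one. It called 6 genes without a difference. DESeq2 recovered 70 and 98 and called 63 without a difference.

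The members and lists (39 lists, 611 genes) were chosen with earlier results of these data known. Named genes are the called ones, the 15 smallest p-values each way among genes of at least 1 CPM with both IL27v libraries on 1 side of both EV libraries, up to 6 per list (all of the IL-27 and interferon lists), the 15 largest ratios each way between the IL27v libraries with 5 CPM or more (0.5 CPM added), the 10 smallest interaction p-values each way, and a set of IL-27, T-cell and tumour genes. Other members of the lists are named to show their levels, and were chosen after their values were seen, as were genes called only in a single-library fit. The offset that removes each library's trend with GC content (smoother span 0.3), and counts divided by 4, were added after seeing the data. Counts of 0 were given a limit of 3 counts per library. Intervals, SE and limits cover these samples and counting only. A few genes are not reported here.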

Additional observations from a re-analysis of the deposited data

Results flagged for a closer look

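The vector difference in media was tested against its mean over the 5 other ex vivo conditions, and edgeR's test of that difference between conditions passed an adjusted p of 0.05 for 217 genes below and 1 gene above. The 1 above was Chil3, with an interaction of 13.97 on the log2 scale, a value that depends on the prior count because both EV media libraries are at 0. Junb, a subunit of AP-1, had the largest value of the named genes below, at -9.04. The centrosome linker gene Crocc was at -5.02, Lmtk3 at -4.67 and the endosomal sorting gene Vps37b at -4.14. Prag1 was at -3.25, Pcnx3 at -3.05, Smtn at -2.88, Sbno2 at -2.60 and the splicing factor gene Sf3b4 at -2.41. Both IL27v media libraries were below both EV media libraries for all 9 genes named here with a negative value. This held for 213 of the 218 called genes, against 16.6% of all genes. The contrast that picked them holds these same libraries, so it is a description only. What the libraries that hold Ngp share, and GC content, move with these values, and their part was not tested beyond the offset for GC.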

How the results depend on the processing

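In media 0 genes were called, and the count was also 0 with DESeq2's size factors in edgeR, a filter at 1 CPM, the replicate number as a block, robust fitting, the GC offset and counts divided by 4. It was 1135 without a filter on low counts, 1 with the 4 media libraries only and 803 with DESeq2. Leaving out 1 library at a time gave 0 to 303: 303 without IL27v media 2, 13 without IL27v media 1, 72 and 70 without EV anti-PD-L1 1 and 2, and 2 without EV IL-27 1. The interaction count of 218 was 1065 without a filter, 879 with DESeq2, 116 with the replicate block and 23 with the GC offset, and 211 to 254 under the other settings. Leaving out 1 library gave 0 (EV media 2) to 640 (IL27v media 2), with 10 without IL27v media 1. Of the remaining libraries, those that moved it by over 1.5 times were EV docetaxel 1 (129), EV anti-PD-L1 1 (393), EV cabozantinib with IL-27 1 and 2 (133 and 107), EV IL-27 1 (573), IL27v cabozantinib 1 and 2 (134 and 120), IL27v docetaxel 2 (111), IL27v anti-PD-L1 1 and 2 (106 each), IL27v cabozantinib with IL-27 1 and 2 (72 and 75) and IL27v IL-27 2 (429). IL27v IL-27 had only 1 library, so leaving it out also took ex vivo IL-27 out of the mean over the other conditions. The cause of these changes was not tested. Where a media library is left out, the lone one is assumed to vary like the other groups.

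Same-numbered libraries did not deviate together: the correlation of their deviations from the group means was -0.0818 in media, and -0.289 to 0.26 over 55 pairs of groups. This correlation cannot settle whether the numbers pair the samples, and the labels do not state it. The block changed the interaction count to 116 and left the media count at 0.

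Of 107 gene results recomputed, 2 had a sign change: Gzmb ranged from -1.37 without IL27v media 2 to 4.87 without IL27v media 1, and Mmp2 from -0.33 to 3.73. With 2 libraries a side, genes not called are not shown to be equal. Reads of paralogs and overlapping genes may be split unevenly.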
